A study of Mus musculus with 26 samples.

Results

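The levels of 9 genes that write, keep or remove cytosine methylation were compared across 3 pluripotent states of the mouse, together with the places in the genome that their promoter fragments touch. The genes are Dnmt1, Uhrf1, Dnmt3a, Dnmt3b, Dnmt3l, Tet1, Tet2, Tet3 and Tdg, chosen by name. All 9 have values among the 15646 genes of the expression table, and each has 1 baited restriction fragment among the 18797 baited fragments that hold a contact. Wild-type (WT) ESCs were the E14Tg2a line, grown on gelatin in medium with serum and LIF. Nanog-/- ESCs were RCNβH-B(t), a single line made from E14Tg2a, kept under hygromycin while it was expanded in that medium. EpiSCs were derived from 129S2 embryos and grown on fibronectin in N2B27 with Activin A and bFGF, so state, strain and medium cannot be told apart in the comparison with ESCs. The strain field of the labels reads C57BL/6, which differs from these line names. RNA-seq covered 3 WT ESC, 3 Nanog-/- ESC and 4 EpiSC samples, and Promoter Capture Hi-C (PCHi-C) covered 5, 5 and 2 sequencing lanes of 2 biological replicates a state.

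DNA methylation in mammals sits mainly on cytosines that precede a guanine (CpG sites). DNMT3A and DNMT3B place it on unmethylated DNA, helped by DNMT3L, which has no catalytic activity of its own, and DNMT1 copies it after replication where UHRF1 has recognised the half-methylated site. TET1, TET2 and TET3 oxidise methylcytosine stepwise, and TDG cuts out the more oxidised forms so that repair can restore cytosine. Naive pluripotent cells are known for high TET1 and TET2, and the primed epiblast for a highly methylated genome.

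The expression table gives for each gene the median RPKM (reads per kilobase of transcript, scaled to the depth of the library) of each state, as the authors' value, and the contact lists are merged over lanes and replicates. No value therefore carries a replicate error, no difference was tested, and neighbours in an order of levels cannot be told apart from their spread. EpiSC medians were in general higher, by a median ratio of 1.89 (0.91 on the log2 scale) over 9077 genes at 1 RPKM or more in both states, and were divided by that ratio unless called "as deposited". The targeted gene Nanog stood at 418 RPKM in WT ESCs and at 22.3 in Nanog-/- ESCs. All 10 naive markers in the table were more than 2-fold lower in EpiSCs, and 6 of 10 primed markers were more than 2-fold higher. In Nanog-/- ESCs 2 of the 10 naive markers (Dppa3 and Klf4) were more than 2-fold lower. So were 5 of the 10 primed markers (Zic2, Fgf5, Zic5, Cer1 and T), and none of either list was higher. Fibroblast markers summed to 45.5 RPKM for WT ESCs, 213 for EpiSCs and 56.6 for Nanog-/- ESCs, with 4 of 5 more than 2-fold higher in EpiSCs. Primitive endoderm markers summed to 3.13, 17.1 and 59.2 RPKM, with 3 of 5 more than 2-fold higher in EpiSCs and 5 of 5 in Nanog-/- ESCs. Of 4 trophoblast markers past the filter Tfap2c was lower in both comparisons and Hand1 higher in Nanog-/- ESCs, and of 3 neural markers Neurod1 and Tubb3 were lower in both. The part of other cell types in the differences below was not tested.

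The promoters of the 9 genes differ in CpG content, which is shown first because CpG sites are what these enzymes act on. RefSeq places 16 promoter windows at them on GRCm38.p6, each with 250 bases before and 50 after a transcription start. Over all 32817 windows of this kind the median was 7 CpG sites, with quartiles of 3 and 20. The Tet2 window held 57, more than 99.8% of all windows, in a run of near-repeats. The main Dnmt3a windows held 46 and 47, the Dnmt3b window 30, the Tdg window 26, the Tet3 window 22 and the Tet1 window 17. The window at the internal Dnmt3a start, which makes the shorter protein, held 18. The 3 Dnmt3l windows held 6, 4 and 3, all below the median. In the sequences, read 5′ to 3′ along the gene's strand, capitals mark CpG sites.
Tet2 (chr3:133544341-133544640, minus strand): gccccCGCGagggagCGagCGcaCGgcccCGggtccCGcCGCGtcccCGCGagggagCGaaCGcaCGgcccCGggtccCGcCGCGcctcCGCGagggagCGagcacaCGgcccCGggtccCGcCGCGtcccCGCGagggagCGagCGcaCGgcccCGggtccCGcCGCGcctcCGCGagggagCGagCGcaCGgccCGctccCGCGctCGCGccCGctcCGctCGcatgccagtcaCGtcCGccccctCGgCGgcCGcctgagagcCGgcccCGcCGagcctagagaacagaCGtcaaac
Dnmt3a, main start (chr12:3806730-3807029, plus strand): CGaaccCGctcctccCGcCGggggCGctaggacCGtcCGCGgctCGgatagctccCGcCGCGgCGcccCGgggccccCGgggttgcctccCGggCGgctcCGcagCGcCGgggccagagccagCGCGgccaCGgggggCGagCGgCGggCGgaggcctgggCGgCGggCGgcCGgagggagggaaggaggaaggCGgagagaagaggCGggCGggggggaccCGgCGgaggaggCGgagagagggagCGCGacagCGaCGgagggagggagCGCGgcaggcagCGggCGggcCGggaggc
Dnmt3a, internal start (chr12:3891494-3891793, plus strand): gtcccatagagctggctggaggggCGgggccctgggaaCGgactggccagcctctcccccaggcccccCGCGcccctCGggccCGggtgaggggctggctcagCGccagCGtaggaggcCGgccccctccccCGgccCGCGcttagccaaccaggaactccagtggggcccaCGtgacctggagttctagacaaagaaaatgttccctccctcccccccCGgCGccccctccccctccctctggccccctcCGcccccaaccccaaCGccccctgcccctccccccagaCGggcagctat
Dnmt3b (chr2:153649199-153649498, plus strand): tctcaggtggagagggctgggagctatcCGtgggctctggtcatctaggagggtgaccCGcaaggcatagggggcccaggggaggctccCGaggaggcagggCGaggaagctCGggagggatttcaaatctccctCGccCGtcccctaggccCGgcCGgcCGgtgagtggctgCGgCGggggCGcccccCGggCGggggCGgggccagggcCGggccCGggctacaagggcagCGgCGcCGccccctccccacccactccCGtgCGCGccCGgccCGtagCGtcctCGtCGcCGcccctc
Tet3 (chr6:83441629-83441928, minus strand): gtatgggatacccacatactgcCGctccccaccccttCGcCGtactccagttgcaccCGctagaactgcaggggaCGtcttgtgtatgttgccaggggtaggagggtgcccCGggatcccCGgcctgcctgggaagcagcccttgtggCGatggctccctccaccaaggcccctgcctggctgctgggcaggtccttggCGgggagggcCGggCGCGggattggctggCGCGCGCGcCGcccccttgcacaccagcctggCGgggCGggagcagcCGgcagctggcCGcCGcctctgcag
Tet1 (chr10:62887275-62887574, minus strand): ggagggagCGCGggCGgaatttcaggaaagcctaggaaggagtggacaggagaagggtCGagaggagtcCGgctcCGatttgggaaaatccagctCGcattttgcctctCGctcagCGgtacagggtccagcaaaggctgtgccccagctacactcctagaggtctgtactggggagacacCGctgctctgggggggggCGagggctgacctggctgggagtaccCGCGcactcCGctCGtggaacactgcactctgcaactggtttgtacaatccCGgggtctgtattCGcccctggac
Dnmt3l, most downstream start (chr10:78055085-78055384, plus strand): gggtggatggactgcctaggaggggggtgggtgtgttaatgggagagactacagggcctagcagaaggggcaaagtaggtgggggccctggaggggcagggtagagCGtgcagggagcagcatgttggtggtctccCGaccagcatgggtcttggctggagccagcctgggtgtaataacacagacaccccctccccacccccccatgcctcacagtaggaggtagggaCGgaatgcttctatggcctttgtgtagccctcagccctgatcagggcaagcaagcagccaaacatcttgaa

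Short motifs were counted on both strands of the same windows. GGGCGG, a box bound by SP and KLF factors, was in 35.6% of all windows and in 12 of the 16 here, with 6 and 7 copies in the overlapping main Dnmt3a windows and 4 at Dnmt3b. CCAAT was in 37.4% of all windows and in 6 of the 16 here (37.5%). Among the 9 genes it was found at Dnmt1, Uhrf1, Tet3 and Tdg but not in the Dnmt3 windows printed above. The E2F motif TTTGGCGC was in 0.515% of all windows and once here, at the Dnmt1 start that lies in a window of 33 CpG sites. The octamer ATGCAAAT, which was in 1.74% of all windows, was in none of the 16. A match is only a string of letters, and its absence says nothing about the factor.

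The maintenance pair was high in every state. Uhrf1 stood at 221 RPKM for WT ESCs, 119 for EpiSCs and 185 for Nanog-/- ESCs. Dnmt1 stood at 172, 108 and 130 RPKM in the same order. Neither passed 2-fold in either comparison. In EpiSCs they were 1.85-fold and 1.58-fold lower after scaling, whereas the deposited EpiSC medians (225 and 204 RPKM) were above those of WT ESCs, so their direction depends on the scaling. Their rank among all genes, which scaling does not touch, went from 383 to 568 for Uhrf1 and from 539 to 643 for Dnmt1. A rank too sets a gene against all the others, so it does not settle the direction. The 5 genes of the replication helicase and clamp list that the table holds (Mcm2 to Mcm6), genes of S phase as Dnmt1 and Uhrf1 are, had a median log2 difference of -0.54 in EpiSCs against -0.78 for the pair.

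The de novo group split 3 ways. Dnmt3l, the inactive partner, stood at 183 RPKM for WT ESCs, 0.436 for EpiSCs (0.822 as deposited) and 392 for Nanog-/- ESCs. That is 128-fold lower in EpiSCs and 2.13-fold higher in Nanog-/- ESCs on the log2(RPKM + 1) scale. Dnmt3a stood at 21.1 RPKM for WT ESCs, 23.5 for EpiSCs and 61.6 for Nanog-/- ESCs, 2.83-fold higher in the last. Against EpiSCs the Dnmt3a difference was 1.11-fold after scaling, but the deposited median of 44.3 RPKM would be past 2-fold. Dnmt3b stood at 210, 144 and 183 RPKM, within 1.46-fold of WT ESCs in both, with an EpiSC median of 271 RPKM as deposited that reverses its direction. By rank Dnmt3b was 410th for WT ESCs, 437th for EpiSCs and 521st for Nanog-/- ESCs, whereas Dnmt3l went from 499th to 10484th and 187th.

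Within a state the make-up of the de novo group does not depend on scaling. Dnmt3b held 50.7% of the summed Dnmt3a, Dnmt3b and Dnmt3l RPKM for WT ESCs, 85.7% for EpiSCs and 28.7% for Nanog-/- ESCs. Dnmt3l held 44.2%, 0.260% and 61.6%. Dnmt3a was the smallest of the 3 in both kinds of ESC, at 5.10% and 9.69%, and held 14.0% in EpiSCs. Dnmt3b RPKM was 9.95 times that of Dnmt3a for WT ESCs, 6.12 times for EpiSCs and 2.97 times for Nanog-/- ESCs.

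Of the oxidising enzymes Tet1 was the most abundant in each state, while Tet3 was the least abundant in both kinds of ESC and stood above Tet2 in EpiSCs. Tet1 stood at 100 RPKM for WT ESCs, 18.0 for EpiSCs and 119 for Nanog-/- ESCs. Tet2 stood at 24.7, 4.14 and 16.1 RPKM. Tet3, the family member known from the oocyte and from differentiated cells, stood at 1.39, 9.37 and 2.94 RPKM. In EpiSCs Tet1 was 5.34-fold lower, Tet2 5.00-fold lower and Tet3 4.33-fold higher, and all 3 calls also hold for the deposited medians (33.9, 7.81 and 17.7 RPKM). None of the 3 passed 2-fold in Nanog-/- ESCs, with log2 differences of 0.25 for Tet1, -0.59 for Tet2 and 0.72 for Tet3. For Tet3 this rests on the 1 RPKM added before the logarithm. With 0.1 RPKM added its difference was 1.03, past 2-fold. Their summed level was 126 RPKM for WT ESCs, 31.5 for EpiSCs and 138 for Nanog-/- ESCs. Tet1 held 79.4% of it for WT ESCs, 57.1% for EpiSCs and 86.2% for Nanog-/- ESCs, and Tet3 held 1.10%, 29.7% and 2.13%. Tdg, the glycosylase downstream of the TETs, stood at 39.3, 15.3 and 43.4 RPKM. Its 2.47-fold lower value in EpiSCs is lost with the deposited median of 28.8 RPKM. Its rank went from 2544th to 5026th, but a rank, like the scaling, sets a gene against all the others.

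**Figure D1:**
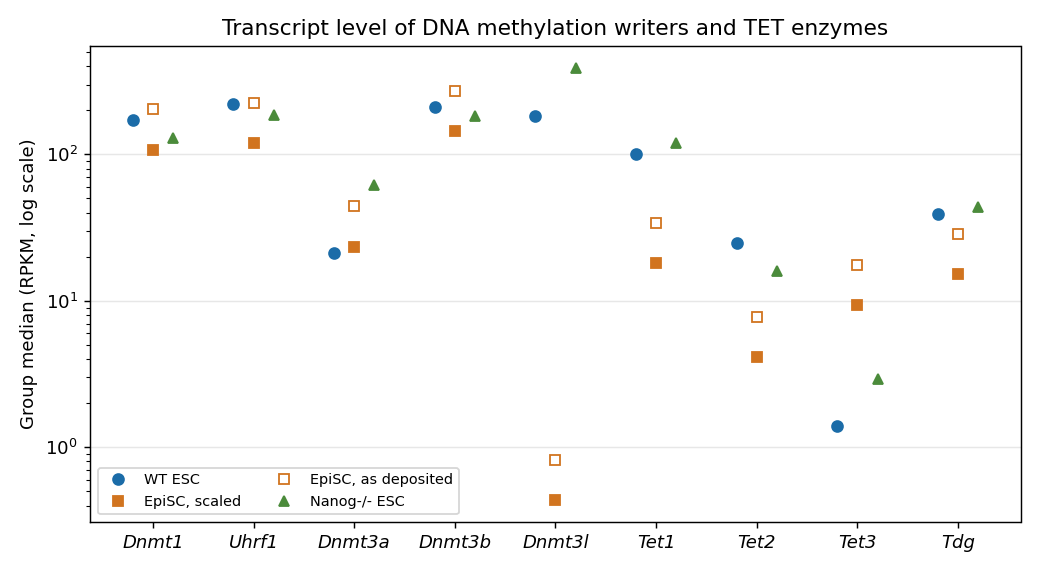
Median RPKM of each state (log axis) for the 9 genes, with EpiSC values shown scaled (filled squares) and as deposited (open squares). Dnmt3l spans from 0.436 RPKM in EpiSCs to 392 RPKM in Nanog-/- ESCs, and Tet3 is the only gene whose EpiSC value is more than 2-fold above WT ESCs after scaling.

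Counted against all 11066 genes with 1 RPKM or more in at least 1 state, 1 of the 9 genes (Tet3) was at least 2-fold higher in EpiSCs, beside 14.8% of all genes, and 4 (Dnmt3l, Tet1, Tet2 and Tdg) were at least 2-fold lower, beside 13.7%. The median log2 difference of the 9 genes was -0.89, and that of all genes 0.03. Without scaling the split of all genes was 4702 higher and 904 lower instead of 1633 and 1512, and that of the 9 genes was 2 higher (Dnmt3a and Tet3) and 3 lower (Dnmt3l, Tet1 and Tet2). In Nanog-/- ESCs 2 of the 9 genes (Dnmt3a and Dnmt3l) were at least 2-fold higher, beside 2.39% of all genes, and none was at least 2-fold lower, beside 1.92%. The median of the 9 genes there was 0.14, and that of all genes 0.07. Both comparisons share the WT ESC medians. All 9 genes passed the filter on low values.

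For 5 of the genes the 3 genes nearest in level over the 3 states were sought, by the Euclidean distance of log2(RPKM + 1). Dnmt3l had no close neighbour, since the nearest, Dppa4 (167, 0.795 and 237 RPKM in WT ESCs, EpiSCs and Nanog-/- ESCs), was 0.804 away, followed by Tdh and Gm2000. Nearest to Tet1 were Klf5, a naive pluripotency factor (88.7, 16.9 and 118 RPKM, distance 0.197), Tufm and Pdzd4. Nearest to Tet2 were Gadd45g, itself a gene linked to demethylation (22.3, 4.65 and 17.2 RPKM, distance 0.214), Clstn3 and Dennd2c. Dnmt3a had Myc (24.2, 29.2 and 72.2 RPKM, distance 0.422), Id1 and Rab31, and Dnmt3b had Tars (205, 140 and 182 RPKM, distance 0.0528) and Mcm4.

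Other genes of the pathway were taken from 4 lists of 56 genes, of which 44 are in the table and 43 passed the filter. In EpiSCs 2 were at least 2-fold higher and 13 at least 2-fold lower, 4.65% and 30.2% beside the 14.8% and 13.7% of all genes. This split turns with the scaling, to 15 higher and 5 lower with the deposited values. The 5 were Gadd45g, Ahcy, Gnmt, Dppa3 and Nsd1. The other genes given below as lower were past 2-fold only after scaling. Zbtb4 and Cxxc4, given as higher, were past 2-fold either way. Among 9 readers of methylated DNA 1 was higher, Zbtb4 (0.538 RPKM in WT ESCs and 3.47 in EpiSCs), and none lower, and the most abundant of the others was Mbd3, a subunit of the NuRD complex, at 153 and 104 RPKM. Of 11 repair and deamination genes 5 were lower, namely Gadd45g (22.3 and 4.65 RPKM), Neil2, Gadd45a, the uracil glycosylase Ung and Parp1 (448 and 179 RPKM). Polb, the polymerase that fills single-base gaps, stood at 39.7 and 40.5 RPKM.

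Of 12 genes of cofactor metabolism 3 were lower in EpiSCs. Ahcy, which clears the product that inhibits methyltransferases, stood at 214 RPKM for WT ESCs, 3.08 for EpiSCs and 226 for Nanog-/- ESCs, 52.8-fold lower in EpiSCs. Gnmt (8.51 and 0.392 RPKM) and Shmt1 (95.5 and 38.9) were the others, and Mat2a, which makes S-adenosylmethionine, stood at 184 and 130 RPKM. Of 11 regulators Cxxc4 (0.0723 and 2.44 RPKM), known to bind TET2, was higher. Dppa3, which shields DNA from UHRF1, was 74.1 RPKM for WT ESCs, 0.0320 for EpiSCs and 13.6 for Nanog-/- ESCs. Nsd1, a histone methyltransferase (58.2 and 12.3 RPKM), Zfp57 (112 and 38.4) and Trim28 (970 and 438), which hold imprints, and Usp7 (143 and 57.5), a partner of DNMT1 and UHRF1, were also lower, and the most abundant of the others was Kdm1a (142 and 95.1). In Nanog-/- ESCs Dppa3 alone of the 43 passed 2-fold, 5.15-fold lower.

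**Figure D2:**
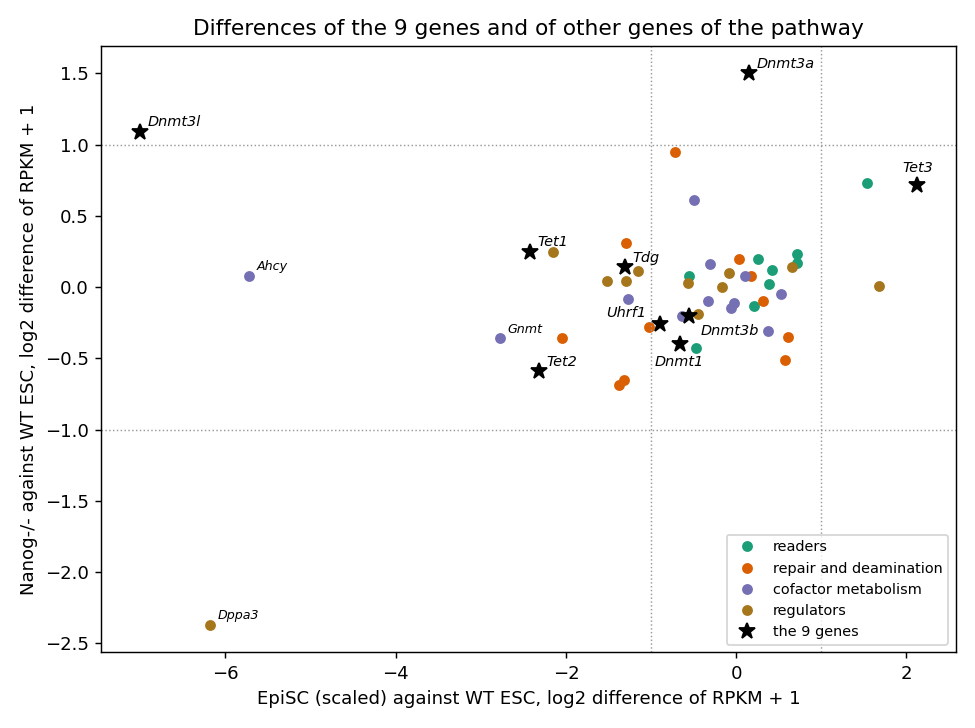
Log2 difference of RPKM + 1 against WT ESCs, for EpiSCs (x axis) and Nanog-/- ESCs (y axis). Stars are the 9 genes, circles the 43 other genes of the pathway, and dotted lines mark 2-fold. Dnmt3l lies at -7.00 and 1.09, and Tet3 at 2.12 and 0.72.

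PCHi-C joins restriction fragments that lie together in the nucleus and then captures those with a promoter. A contact here is a pair of HindIII fragments with a CHiCAGO score of 5 or more, which weighs its reads against the background at that distance, and a pair listed from both ends counts once. The lists hold 100492 pairs for WT ESCs, 87369 for EpiSCs and 74931 for Nanog-/- ESCs, with 2177383, 1651422 and 1440356 reads. The 9 baits had 55, 43 and 39 contacts in these lists, 95 different ones in all, with medians of 13, 12 and 14 reads. Over all baits with a contact the median was 4 contacts in each list. Tet3 had the most, 18 for WT ESCs, 14 for EpiSCs and 13 for Nanog-/- ESCs, above 90.1%, 87.7% and 85.8% of such baits. Dnmt3a had 10, 5 and 9 contacts, Uhrf1 11, 4 and 4, Tet2 5, 4 and 3, and Dnmt1 4, 1 and 4. Dnmt3b had 3, 6 and 3 and Tet1 3, 7 and 3, so these were richest in EpiSCs. Dnmt3l had 1 contact in WT ESCs and none in the other lists, and Tdg had 2 in EpiSCs and none in either ESC list. A contact outside a list may have had reads under the threshold, and the size of the lists differs.

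**Figure D3:**
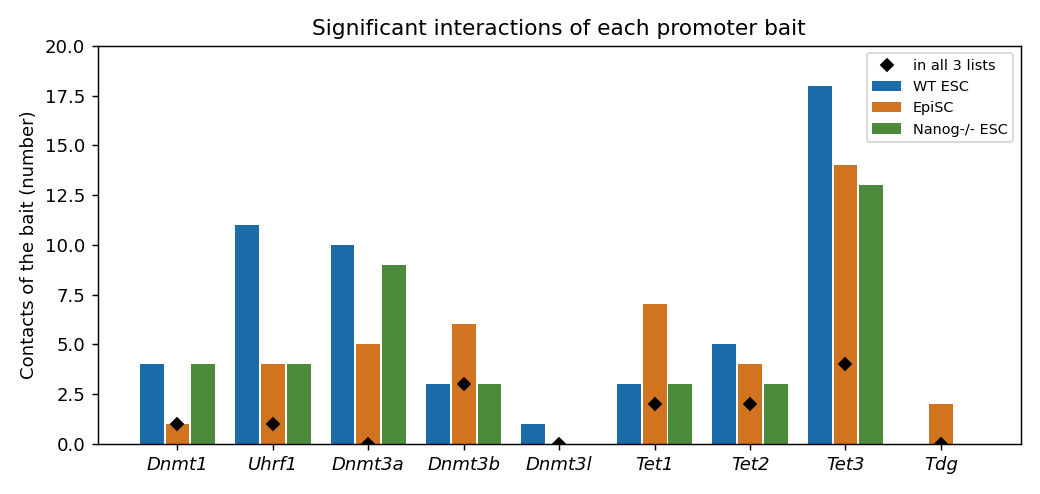
Number of contacts of each bait in the 3 lists (bars) and number held by all 3 (diamonds). Tet3 has the highest bars, at 18, 14 and 13, Dnmt3b has all 3 of its ESC contacts in every list, and no contact of Dnmt3a is in all 3. Over all WT ESC contacts 24.9% are in all 3.

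Of the 55 WT ESC contacts 15 were also in the EpiSC list (27.3%, Wilson 95% interval 17.3 to 40.2, counting error only), beside 39.6% of all WT ESC contacts. In the Nanog-/- list 27 of the 55 were found (49.1%, 36.4 to 61.9), beside 41.8%. Both lists held 13 of the 55 (23.6%, 14.4 to 36.3), beside 24.9%. Read from the other side, 15 of 43 EpiSC contacts (34.9%, 22.4 to 49.8) were in the WT ESC list, beside 45.5% of all EpiSC contacts. Likewise 27 of 39 Nanog-/- contacts (69.2%, 53.6 to 81.4) were in the WT ESC list, beside 56.0%. Each of these 5 shares has the value for all contacts inside its interval. If a directly adjacent partner fragment also counts, the share found in EpiSCs becomes 45.5% (25 of 55), beside 53.6% of all, and that in Nanog-/- ESCs 60.0% (33 of 55), beside 54.7%.

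The 13 contacts in all 3 lists spread over 6 of the genes, with 4 at Tet3, 3 at Dnmt3b, 2 each at Tet1 and Tet2, and 1 each at Dnmt1 and Uhrf1. Contacts found in 1 list only numbered 26 for WT ESCs, 28 for EpiSCs and 12 for Nanog-/- ESCs. The median distance between midpoints was 130 kb for WT ESCs, 129 kb for EpiSCs and 50.0 kb for Nanog-/- ESCs, beside 139, 141 and 74.1 kb over all contacts of each list. The last 2 medians depend on which contacts are kept, since at a score of 7 or more the 3 were 135, 60.0 and 18.2 kb, and without baited partners 131, 78.7 and 29.3 kb. None of the contacts was longer than 406 kb. Another baited fragment was the partner in 13, 12 and 8 contacts, or 23.6%, 27.9% and 20.5%, beside 22.9%, 18.2% and 21.9% of all contacts.

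**Figure D4:**
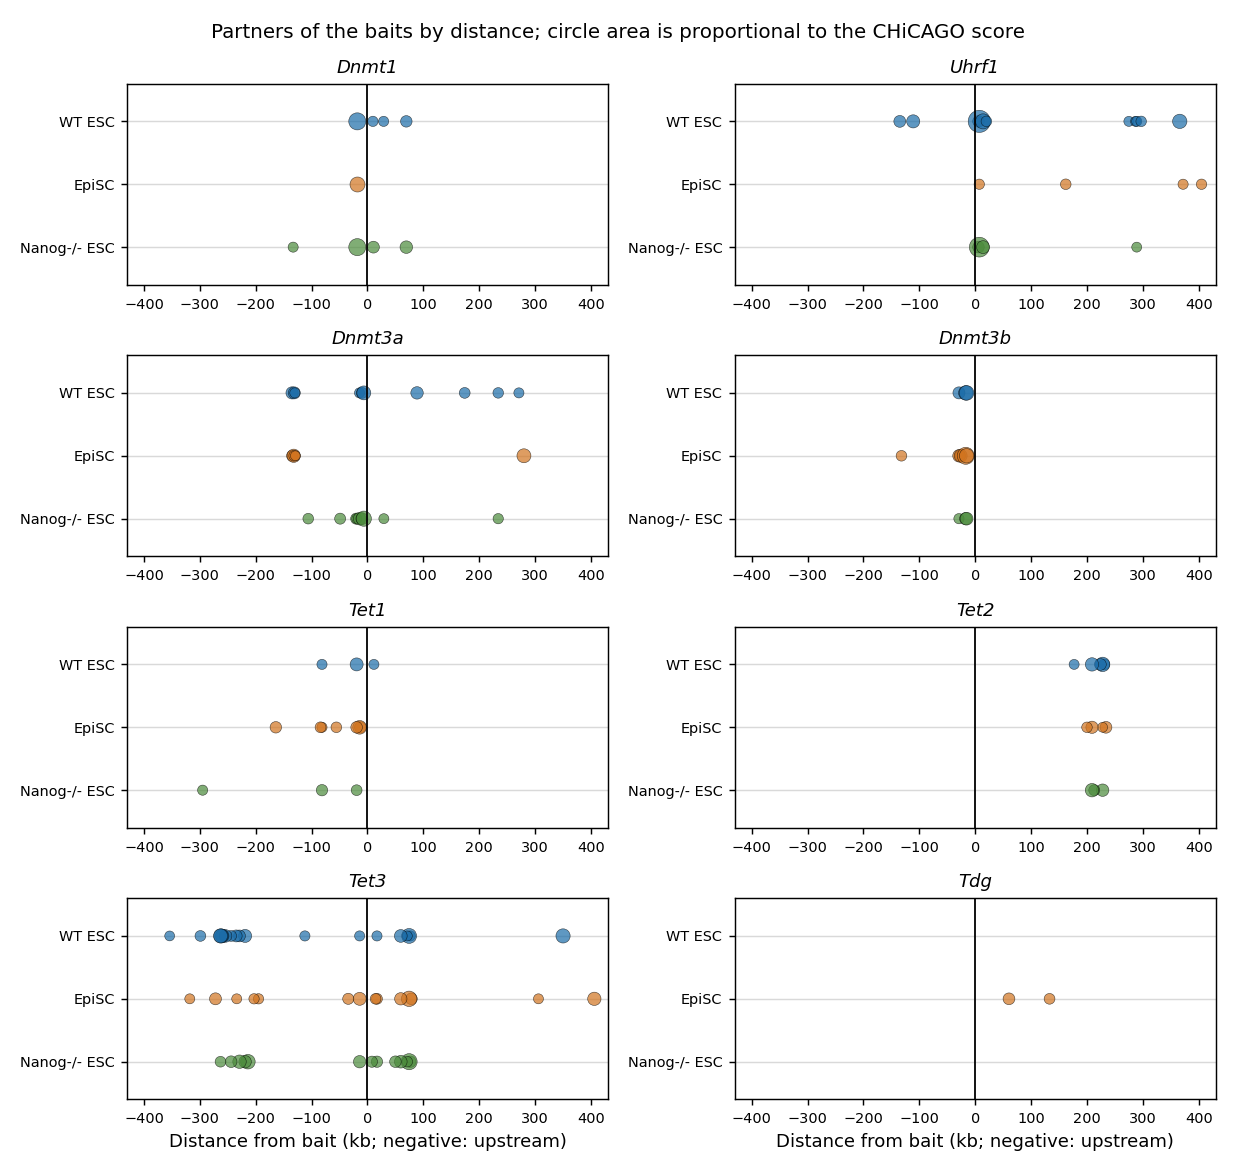
Partners of 8 baits by distance (kb, negative for upstream of the gene), 1 row a state, with circle area in proportion to the CHiCAGO score. The Tet2 partners of the 3 states together lie 177 to 234 kb downstream, and the Tet1 partners reach 164 kb upstream in EpiSCs.

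The Dnmt1 bait (chr9:20952453-20969214) holds all 4 coding starts of the gene, and its leading contact was the same in the 3 lists. It joined the bait to the S1pr2 promoter, a receptor for sphingosine phosphate, 18.2 kb upstream, with 36 reads for WT ESCs (Poisson 95% interval 25.2 to 49.8), 30 for EpiSCs (20.2 to 42.8) and 21 for Nanog-/- ESCs (13.0 to 32.1), and scores of 14.93, 11.54 and 14.93. It was the 1 contact of Dnmt1 in EpiSCs. WT and Nanog-/- ESCs also shared a fragment with exons of Eif3g and Ppan, 69.5 kb downstream (9 and 7 reads). Inside Dnmt1 itself WT ESCs had fragments 9.70 and 28.9 kb downstream (21 and 10 reads), and Nanog-/- ESCs had 1 at 10.7 kb (16 reads). A fragment with the Raver1 promoter 133 kb upstream was listed in Nanog-/- ESCs only, with 4 reads.

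The Uhrf1 bait (chr17:56301369-56311506) holds all 5 coding starts and its own gene gave 185 of its 246 reads for WT ESCs, 48 of 62 for EpiSCs and 151 of 155 for Nanog-/- ESCs. The strongest partner lay 7.28 kb downstream, over exons of Uhrf1 (chr17:56312621-56314823), with 101 reads (82.3 to 123) and a score of 25.10 in WT ESCs, 77 reads (60.8 to 96.2) and 20.03 in Nanog-/- ESCs, and 48 reads (35.4 to 63.6) and 5.48 in EpiSCs. Scaled by the total reads of each list, EpiSC reads were 0.627 times those of WT ESCs (0.435 to 0.892) and Nanog-/- reads 1.15 times (0.845 to 1.57). The EpiSC ratio is the one among 15 contacts shared with EpiSCs whose counting interval leaves out 1. None of the 27 shared with Nanog-/- ESCs did so. These intervals are not adjusted for their number and carry no replicate error. The fragments on both sides, 5.77 and 14.0 kb downstream, were listed in WT ESCs (49 and 35 reads) and Nanog-/- ESCs (48 and 26 reads) but not in EpiSCs. Only in WT ESCs did the bait itself meet the promoter of the histone demethylase gene Kdm4b, 20.0 kb away (21 reads). In Nanog-/- ESCs that promoter met the partner 7.28 kb downstream of the bait (24 reads, score 6.64). Contacts of the bait in WT ESCs alone were also the promoters of Ranbp3 at 366 kb (7 reads, score 10.54) and 2410015M20Rik at 297 kb (5 reads). Exons of Dpp9 and Tnfaip8l1, 111 and 135 kb upstream (9 and 7 reads), were likewise listed in WT ESCs alone. The 2410015M20Rik fragment also covers exons of Safb, and 3 more fragments over Safb2 and Safb, 275 to 289 kb away, had 4 reads each in WT ESCs, 1 of which was in the Nanog-/- list. In EpiSCs the highest score, 5.78, was that of a fragment in an intron of Ptprs, 162 kb downstream, with 6 reads, and 2 fragments of Ranbp3 at 372 and 405 kb had 4 reads each.

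The Dnmt3a bait (chr12:3798499-3806240) ends just before the main promoters, so that none of the 13 coding starts lies in it and 1 of 18 transcripts begins there. No contact of this bait was in all 3 lists, beside 24.9% of all WT ESC contacts. Right upstream, WT ESCs had 3 fragments 6.54 to 14.2 kb away with 313 reads in all, Nanog-/- ESCs had 5 within 20.2 kb with 235 reads, and EpiSCs had none. The nearest of these held the highest score of the bait in Nanog-/- ESCs (11.80, 99 reads, 80.5 to 121) and in WT ESCs (9.91, 168 reads, 144 to 195). Far upstream, 129 to 135 kb away in introns of Dtnb, WT ESCs had 3 contacts with 42 reads, EpiSCs 4 with 51 reads and Nanog-/- ESCs none. The Dtnb fragments of Nanog-/- ESCs were others, at 20.2 (the farthest of the 5), 48.9 and 106 kb. Dnmt3a RNA was highest in Nanog-/- ESCs, and the scaled reads of its 4 contacts shared with them were 0.851 to 0.990 times those of WT ESCs.

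Downstream, WT ESCs joined the Dnmt3a bait to the fragment that holds the internal start (chr12:3889056-3893171), 88.7 kb away, with 15 reads (8.40 to 24.7) and a score of 7.95, seen from the internal end. Neither other list held this contact. The promoter of Efr3b, 234 kb away, was listed in WT ESCs (10 reads) and Nanog-/- ESCs (6 reads), and that of Dnajc27, 280 kb away, in EpiSCs (8 reads, score 9.99), the highest score of the bait there. The highest score called from the bait itself in EpiSCs, 9.02 with 16 reads, went to a fragment of 210 bases in a Dtnb intron. It is printed whole, as it holds no CpG site, with 36.7% G and C and 10.5% in masked repeats.
Dnmt3a partner in EpiSCs (chr12:3670482-3670691, plus strand): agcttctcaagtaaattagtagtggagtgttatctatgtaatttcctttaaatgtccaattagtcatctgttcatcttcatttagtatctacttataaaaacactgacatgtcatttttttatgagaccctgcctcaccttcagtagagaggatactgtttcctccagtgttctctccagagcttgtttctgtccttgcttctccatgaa

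The Dnmt3b bait (chr2:153648525-153673001) holds all 10 coding starts, and all its contacts lay upstream. Its 3 WT ESC contacts were in every list. The partner 15.5 kb away had 39, 35 and 24 reads in WT ESCs, EpiSCs and Nanog-/- ESCs, with scores of 11.09, 10.61 and 8.40. The one 17.0 kb away had 35, 40 and 20 reads, and its score was highest in EpiSCs (10.63, 14.86 and 7.76). The Commd7 promoter, 29.1 kb away, had 26, 21 and 13 reads. Scaled reads in EpiSCs were 1.18, 1.51 and 1.06 times those of WT ESCs, with intervals that all include 1. EpiSCs added 2 fragments next to the Commd7 partner (15 and 20 reads) and the promoter of Nol4l at 132 kb (7 reads). The smaller of the added fragments, 266 bases long and 50.8% masked repeat, holds 2 CpG sites.
Dnmt3b partner in EpiSCs (chr2:153633810-153634075, plus strand): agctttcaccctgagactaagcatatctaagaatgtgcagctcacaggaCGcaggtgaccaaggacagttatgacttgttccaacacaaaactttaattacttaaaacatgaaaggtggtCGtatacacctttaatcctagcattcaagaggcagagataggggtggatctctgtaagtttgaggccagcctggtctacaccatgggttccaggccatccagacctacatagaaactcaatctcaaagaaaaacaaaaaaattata

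The Dnmt3l bait (chr10:78035942-78054825) holds 3 of 6 coding starts and also those of Aire, the regulator of tolerance in the thymus, and contacts of the 2 genes cannot be told apart there. Its single contact, in WT ESCs, was the D10Jhu81e promoter 124 kb downstream, with 6 reads (2.20 to 13.1) and a score of 5.86. Between WT ESCs and EpiSCs, where Dnmt3l RNA differed most of the 9 genes, the bait thus offers 1 contact near the threshold. Nanog-/- ESCs, with the highest Dnmt3l level, had none.

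Super-enhancer fragments of ESCs lie within Tet1, and its bait (chr10:62895740-62900840) is itself a super-enhancer fragment, with 1 of the 8 coding starts. In WT ESCs the bait touched the super-enhancer fragment 11.5 kb downstream (chr10:62885226-62888260), which holds 2 more Tet1 starts and the promoter window printed above, with 49 reads (36.3 to 64.8) and a score of 5.21. Among the pairs of the 9 baits in these 3 lists, it was the only one whose partner was a single super-enhancer fragment. Its score lies close to the threshold of 5. The other pairs of the Tet1 bait hold such a fragment only at the bait end. A pair of promoters upstream was listed in all 3 states, always as called from the other promoter. Slc25a16, a mitochondrial carrier gene 19.4 kb away, had 27, 21 and 12 reads and scores of 8.67, 6.91 and 5.98. Rufy2, 81.4 kb away, had 13, 9 and 8 reads and scores of 5.28, 5.25 and 6.64. EpiSCs, with the lowest Tet1 level, had 5 further contacts, all upstream. They were fragments 13.0 kb (40 reads) and 14.0 kb away (48 reads, score 9.61, the highest in EpiSCs), an exon of Dna2 at 55.7 kb, an intron of Rufy2 at 84.0 kb and the Pbld1 promoter at 164 kb. Nanog-/- ESCs added a Mypn fragment 295 kb away with 5 reads. The EpiSC fragment at 13.0 kb spans 233 bases between HindIII sites, with 2 CpG sites.
Tet1 partner in EpiSCs (chr10:62911171-62911403, plus strand): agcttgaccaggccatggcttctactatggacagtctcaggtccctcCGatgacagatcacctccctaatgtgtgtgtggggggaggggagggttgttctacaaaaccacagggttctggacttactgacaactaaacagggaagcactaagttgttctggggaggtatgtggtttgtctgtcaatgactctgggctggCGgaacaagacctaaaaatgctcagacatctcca

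The Tet2 bait (chr3:133543061-133547616) showed 1 pattern in all states. Every one of its 8 different contacts lay inside Ppa2, the gene of a mitochondrial pyrophosphatase, 177 to 234 kb downstream. A pair of fragments was in every list. The one 228 kb away had 12, 7 and 7 reads with scores of 10.69, 5.02 and 7.94, and the one 209 kb away had 11, 10 and 8 reads with scores of 9.17, 7.67 and 9.28. Scaled reads were 0.769 and 1.20 times those of WT ESCs in EpiSCs, and 0.882 and 1.10 times in Nanog-/- ESCs, with intervals that include 1. The Ppa2 promoter itself, 234 kb away, was listed in EpiSCs (9 reads, score 7.11). Although 5 super-enhancer fragments lie inside Tet2 (chr3:133517081-133537638), the bait is not one of them and no listed contact of the bait joined them. Tet2 RNA differed 5.00-fold between WT ESCs and EpiSCs, with 5 and 4 contacts of the bait.

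The Tet3 bait (chr6:83439049-83444494) had most of its partners in its own gene and in a block far upstream. Inside Tet3 there were 6 contacts for WT ESCs, 6 for EpiSCs and 8 for Nanog-/- ESCs, with 229, 238 and 228 reads. Of these, 4 were in all 3 lists. A fragment of 162 bases within an exon, 74.5 kb away, had 32, 26 and 21 reads and the highest score of the bait in each list (11.41, 12.17 and 13.31). An intron fragment 59.6 kb away had 30, 22 and 17 reads, and another 17.0 kb away had 57, 48 and 34. The last, 14.0 kb upstream (chr6:83452542-83458909), holds a further Tet3 start and had 71, 71 and 47 reads in that order, with scores of 5.29, 8.60 and 7.91. Tet3 RNA was 4.33-fold higher in EpiSCs, and the scaled reads of these 4 contacts there were between 0.967 and 1.32 times those of WT ESCs, with intervals that include 1.

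The upstream block, 195 to 354 kb away, held 10 Tet3 contacts in WT ESCs with 113 reads, 5 in EpiSCs with 35 reads and 5 in Nanog-/- ESCs with 39 reads. In WT ESCs 3 fragments in a row, 260 to 263 kb away between Cd207 and Vax2, had 13, 14 and 14 reads and scores of 9.30, 10.36 and 10.16. The last of them was also listed in Nanog-/- ESCs (7 reads). Of the 5 Nanog-/- contacts of the block 4 were in the WT ESC list, beside 56.0% of all Nanog-/- contacts. None of the 5 EpiSC contacts was, beside 45.5% of all EpiSC contacts. The EpiSC partners lay in the same stretch, at 195, 203, 234, 272 and 318 kb. Those at 234 and 272 kb directly adjoin partners listed in WT ESCs. The promoter of Cd207, the langerin gene, was listed in WT ESCs (9 reads) and Nanog-/- ESCs (7 reads), that of Clec4f in Nanog-/- ESCs (6 reads, score 10.86), that of Nagk in WT ESCs (4 reads) and the Vax2os1 bait in EpiSCs (6 reads). Downstream, the promoters of Loxl3 at 406 kb (6 reads, score 9.08) and Rtkn at 306 kb (6 reads) were EpiSC contacts, and a baited fragment at 350 kb between genes was a WT ESC contact (8 reads, score 10.35). A fragment of 175 bases in an intron of Cd207, 235 kb away, is printed as the shortest of the WT ESC block, with 12 reads, a score of 7.32 and 3 CpG sites.
Tet3 partner in WT ESCs (chr6:83677058-83677232, plus strand): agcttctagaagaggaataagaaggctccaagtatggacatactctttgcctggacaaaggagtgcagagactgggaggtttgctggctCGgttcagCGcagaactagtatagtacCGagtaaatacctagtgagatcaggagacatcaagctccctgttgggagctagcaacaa

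The Tdg bait (chr10:82629487-82631130) holds 3 of 5 coding starts and is the shortest of the 9, at 1644 bases. Both of its contacts were in EpiSCs and were promoters downstream. Glt8d2, a glycosyltransferase gene 60.4 kb away, had 15 reads (8.40 to 24.7) and a score of 7.10. Nfyb, the gene of a subunit of the factor that binds CCAAT, 133 kb away, had 8 reads (3.45 to 15.8) and a score of 5.95.

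Reads of contacts in 2 lists were compared after scaling by the total of each list. Only contacts that reached a score of 5 in both lists have a ratio, so those that fell out of a list are not covered. The 15 contacts shared with EpiSCs had scaled ratios from 0.627 to 1.51 with a median of 1.06, beside 1.10 over all 39765 shared contacts. None reached a 2-fold difference, as 4.18% of all shared contacts did. The 27 shared with Nanog-/- ESCs ran from 0.672 to 1.51 with a median of 0.930, beside 0.938 over 41986, and none reached 2-fold, as 0.819% of all did. Most intervals are wide at these depths. For the Tet2 contact 228 kb away, the ratio of EpiSCs to WT ESCs was 0.769 with an interval of 0.257 to 2.12, so that a 2-fold difference was not detectable there.

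**Figure D5:**
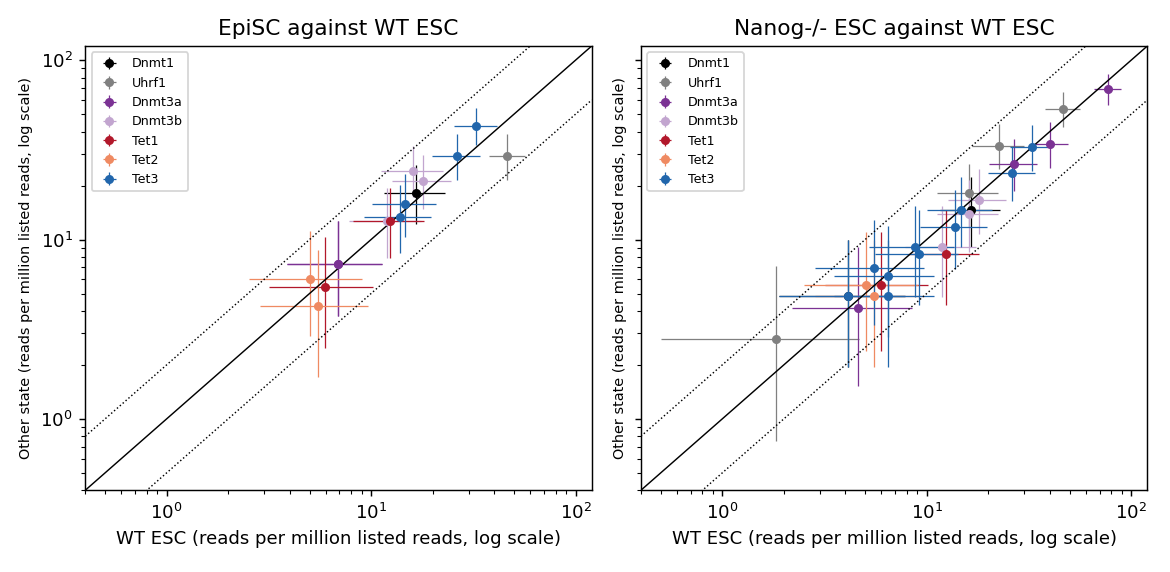
Reads of each contact relative to the total of its list, for those found in WT ESCs (x axis) and in the other state (y axis), on log axes, with Poisson 95% intervals. The solid line is equality and dotted lines are 2-fold. All points lie between the dotted lines, and the EpiSC point farthest below equality is the Uhrf1 contact at a ratio of 0.627.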

How the data were processed

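Promoter contacts and RNA levels were taken from the deposited tables. Per the study's methods, the authors processed PCHi-C reads with HiCUP, scored pairs of HindIII fragments with CHiCAGO and combined 2 biological replicates a state. The submitters' notes name Bowtie 1.1.0 and GRCm38. The authors deposited 1 list a state, with read counts and the CHiCAGO score, and no listed score is under 5. For RNA-seq the notes name Trim Galore, TopHat and DESeq2, and the authors deposited RPKM as group medians. One median column is headed by a line code that the design text sets against ESCs, and it was taken as the Nanog-/- group on that ground. The table's log2 fold changes and significance columns of the authors' own comparisons were not used. The processing beyond these names is not given in the sources used here, and the libraries' depth is unknown. The ChIP-seq samples were not analysed here.

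Pairs were matched by coordinates, and a pair listed from both ends kept the higher score. Both ends of all 104 fragments of the members' contacts are HindIII sites in GRCm38. Fragments were annotated with GENCODE M21, super-enhancer fragments (899) are the study's own, and promoter sequences come from RefSeq (GRCm38.p6). All 9 genes matched. RPKM differences are log2(RPKM + 1), over 11066 genes at 1 RPKM or more in at least 1 state, called at 2-fold. EpiSC values were divided by the median ratio of 1.89. Of the listed pathway and marker genes, 2 were matched by an older symbol. Shares carry Wilson and reads Poisson 95% intervals, and ratios of reads exact binomial ones, for counting error only. Named were the 9 members, list genes past 2-fold with the most abundant of the others, the 3 nearest genes of 5 members (1 of them is not reported here), and the top, shared and promoter contacts of each bait. The groupings of contacts by place were chosen after their values were seen. The members and lists were chosen with earlier results of these data known. Python 3.11.15, numpy 2.4.6, scipy 1.17.1, pandas 2.3.3, matplotlib 3.10.9 and samtools were used.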

Additional observations from a re-analysis of the deposited data

How the results depend on the processing

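No paired analysis was possible because the tables hold group medians and combined lists, with no value of a single sample, and for the same reason no replicate could be left out. With EpiSC values as deposited 2 members were higher, and the other pathway genes split into 15 higher and 5 lower. Called at 1.5-fold, 6 pathway genes were higher in EpiSCs, 1 member was lower in Nanog-/- ESCs, and 3 pathway genes were higher and 3 lower there. A pseudocount of 0.1 RPKM gave 2 higher pathway genes in Nanog-/- ESCs, and 638 higher and 414 lower of all genes against 264 and 212. At 1.5-fold all genes split into 2854 higher and 2601 lower in EpiSCs (1633 and 1512 at 2-fold) and 955 and 686 in Nanog-/- ESCs. At a score of 7 or more the members kept 27, 16 and 19 contacts in WT ESCs, EpiSCs and Nanog-/- ESCs, at 10 or more 11, 4 and 5, and with at least 10 reads 25 in EpiSCs and 25 in Nanog-/- ESCs. The share of WT ESC contacts found in EpiSCs became 45.5% with adjacent fragments and 44.4% at a WT ESC score of 7 or more (all contacts 57.8%), and that found in Nanog-/- ESCs 55.6% at this score, below the 60.4% of all contacts where the reported share lay above. The median distance became 60.0 kb in EpiSCs and 18.2 kb in Nanog-/- ESCs at a score of 7 or more, and 78.7 and 29.3 kb without baited partners. With reads not scaled, 1 contact in EpiSCs and 3 in Nanog-/- ESCs were 2-fold lower. The other 43 summary values under the alternatives stayed within 1.5 times of the reported one, or for shares within its interval. Among these, a pseudocount of 0.1 RPKM gave 3 higher members in Nanog-/- ESCs instead of 2, with Tet3 added. Of the log2 differences of single members 45 differed from the reported one by less than 0.005 and 36 by more, and no called one changed sign. The presence of a contact of 4 to 10 reads in 1 list rests on few reads.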

Other observations

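Some starts of the 9 genes lie in fragments that the lists name for another transcript or do not bait. A choice of their contacts, looked at after the values above were seen, is given as values. The fragment next to the Dnmt3l bait (chr10:78054826-78061781) holds the other 3 coding starts of Dnmt3l and was joined to the D10Jhu81e promoter, 111 kb away, in all 3 lists, with 15, 11 and 9 reads for WT ESCs, EpiSCs and Nanog-/- ESCs and scores of 8.50, 6.70 and 7.35. The same promoter met the Dnmt3l bait itself in WT ESCs alone.

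Next to the Tet1 bait, a baited super-enhancer fragment (chr10:62888261-62895739) with 1 further coding start had 2 contacts for WT ESCs, 7 for EpiSCs and 1 for Nanog-/- ESCs. In EpiSCs it met 4 of the fragments that the Tet1 bait met there. These had 29 reads each at 19.3 and 20.3 kb, 19 at the Slc25a16 promoter and 7 at the Pbld1 promoter. Its Nanog-/- contact was the fragment at 20.3 kb (17 reads, score 5.66), which the Tet1 bait itself met in EpiSCs alone. In WT ESCs it met the Slc25a16 promoter (15 reads) and a fragment of Rufy2 at 103 kb (10 reads). Inside Dnmt3a, a baited fragment with 2 coding starts (chr12:3858544-3877106) was joined to Dtnb intron fragments that the Dnmt3a bait met. It had 9 reads at 197 kb in WT ESCs and 8 reads at 201 kb in EpiSCs. The Dnajc27 promoter, which the Dnmt3a bait met in EpiSCs alone, met this fragment in WT ESCs alone (215 kb, 7 reads, score 6.99). The fragment with the internal start met the Pomc promoter, 63.6 kb away, in EpiSCs (12 reads) and Nanog-/- ESCs (9 reads), and the Dnmt3a bait in WT ESCs. A fragment with a further Dnmt1 start (chr9:20933623-20939871) met the Cdc37 promoter, 211 kb away, in WT ESCs (15 reads, score 12.38). Another (chr9:20908164-20909074) met it, 239 kb away, in WT ESCs (9 reads) and Nanog-/- ESCs (7 reads). A fragment with a further Tet3 start (chr6:83458910-83459695) met the Vax2os1 bait, 255 kb away, in EpiSCs (4 reads).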
